A study of Mus musculus with 12 samples.

Results

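Ifrd1, Arhgef2, Dnaic1 and Vmn2r3 were 4 of the 50686 genes in a table of liver RNA-seq counts, and they were picked because their counts were far higher after siRNA against Eif3m than after a control siRNA at both time points. The choice rested on that same comparison, so the difference between siRNA and control livers is described for these 4 genes and carries no test. The livers came from FVB/N mice that were 6 to 8 weeks old at the time of dosing; siRNA packed in lipid nanoparticles was injected into the tail vein once in 5 days, each dose being 0.5 mg/kg. The siRNA targeted Eif3m, which encodes a subunit of the translation initiation complex eIF3, or was a scrambled luciferase siRNA. Livers were collected on day 9 or day 13, so that each of the 2 siRNAs was read at each of the 2 days, in 3 libraries a group and 4 groups in all. All mice, controls included, had received an siRNA in lipid nanoparticles. The labels give 3 replicates a group without saying that each was a separate mouse, so the p-values given here speak of sample-to-sample spread, which may be technical. In whole liver, a change in the number of cells of a type and a change in RNA per cell cannot be told apart.

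The genes belong to unrelated families. Ifrd1 (also TIS7) encodes a transcriptional coregulator found with Sin3 and histone deacetylase complexes and was first isolated as a gene induced by growth factors and phorbol ester; its transcript carries an upstream open reading frame and has been described as a target of nonsense-mediated decay, the pathway that destroys messengers whose reading frame ends early. Arhgef2 encodes GEF-H1, an exchange factor that is held inactive on microtubules and loads RhoA with GTP once released. Dnaic1, named Dnai1 in newer annotation, encodes an intermediate chain of the outer dynein arm that drives motile cilia, and hepatocytes carry no motile cilia. Vmn2r3 encodes a type 2 vomeronasal receptor, a class of G protein-coupled receptors through which sensory neurons of the vomeronasal organ detect pheromones.

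The promoters of the 4 genes are printed because the genes were high in the same libraries; each runs from 250 bases before to 50 bases after a start site in RefSeq (build GRCm38.p6), and capitals mark the motif matches described next. Arhgef2 had 4 such promoters, of which the one with a match is shown, and the other 3 genes had 1 each.
Ifrd1 (chr12:40223140-40223439, minus strand): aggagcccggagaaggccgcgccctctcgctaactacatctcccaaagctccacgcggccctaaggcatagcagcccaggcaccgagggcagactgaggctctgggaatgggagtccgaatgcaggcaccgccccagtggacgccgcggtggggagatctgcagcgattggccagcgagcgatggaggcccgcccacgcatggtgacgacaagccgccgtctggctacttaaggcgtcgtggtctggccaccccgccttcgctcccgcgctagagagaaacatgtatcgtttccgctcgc
Arhgef2, promoter 1 (chr3:88615893-88616192, plus strand): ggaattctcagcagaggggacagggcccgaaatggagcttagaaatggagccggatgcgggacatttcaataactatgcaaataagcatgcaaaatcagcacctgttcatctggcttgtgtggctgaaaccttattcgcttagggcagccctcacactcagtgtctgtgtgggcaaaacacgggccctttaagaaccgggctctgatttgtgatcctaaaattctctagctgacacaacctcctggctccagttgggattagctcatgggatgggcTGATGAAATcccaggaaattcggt
Dnaic1 (chr4:41569544-41569843, plus strand): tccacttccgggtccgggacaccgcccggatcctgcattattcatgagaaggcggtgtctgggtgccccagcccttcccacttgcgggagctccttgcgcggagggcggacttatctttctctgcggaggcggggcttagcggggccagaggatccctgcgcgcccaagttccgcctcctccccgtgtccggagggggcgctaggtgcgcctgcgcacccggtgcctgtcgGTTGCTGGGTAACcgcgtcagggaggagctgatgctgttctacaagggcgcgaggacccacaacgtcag
Vmn2r3 (chr3:64287368-64287667, minus strand): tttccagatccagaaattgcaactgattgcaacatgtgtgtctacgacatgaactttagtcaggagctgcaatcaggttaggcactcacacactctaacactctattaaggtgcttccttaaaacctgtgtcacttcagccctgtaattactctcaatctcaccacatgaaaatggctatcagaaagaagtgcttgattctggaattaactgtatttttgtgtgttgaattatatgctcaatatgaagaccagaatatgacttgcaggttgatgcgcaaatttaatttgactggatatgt

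The motif letters were chosen after these sequences had been seen, and both strands were searched. The Dnaic1 promoter held GTTGCTGGGTAAC, a match to the symmetric form of the X-box, the element bound by RFX factors of ciliated cells, with 3 of its 13 positions left free, at bases -19 to -7 from the start site. The free positions include those at which the Dnaic1 sequence departs from symmetry, so the pattern as searched is not symmetric. Its letters were chosen with this sequence in view. The match therefore followed from that choice, and nothing is read from it or from the frequency of the pattern. The pattern as searched occurred in 0.457% of the 32851 RefSeq promoters of the same length. Arhgef2 promoter 1 held TGATGAAAT, which spells TGATGNAAN, the composite element bound by ATF4 with C/EBP proteins, at bases 26 to 34 after the start, and 3.95% of promoters held that motif. No other promoter of the 4 genes held either motif. A full p53 site and the cAMP response element TGACGTCA were also searched; none of the 7 promoters held one, against 0.0731% and 1.79% of all promoters. The Vmn2r3 promoter was 38.3% G and C, the Ifrd1 and Dnaic1 promoters 65.7% and 67.0%, and the median promoter 52.7%. A match of letters is a description and shows no binding. The RefSeq starts of all 4 genes lie inside the gene bodies annotated by GENCODE, and counts per gene do not tell which start was in use.

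Total counts were 38783564 to 54538581 in the day 9 libraries and 7650269 to 9630027 in the day 13 libraries, so a count of 1 weighs more at day 13. Eif3m averaged 44.8 ± 0.684 CPM (counts scaled to library size) in day 9 controls and 4.79 ± 0.0859 in siRNA livers, and 36.4 ± 4.56 and 2.37 ± 0.167 CPM at day 13 (SD, n = 3), with no overlap on either day. Albumin transcripts, which mark hepatocytes, were present at 64101 to 162739 CPM in every library. The days separated on the first principal component (40.1% of the variance), and each siRNA effect was taken against controls of the same day. Library names carry different prefixes on the 2 days, and depth differed as well. A difference between days therefore cannot be told apart from a difference between these sets of libraries. On the third component (9.44%) day 13 control replicate 3 lay at 52.0 and the other day 13 controls at -18.0 and -15.3, while day 13 siRNA replicates 1, 2 and 3 were spread out at -37.6, 36.9 and -4.68. Control replicate 3 and siRNA replicate 2, the pair at the high end, were left out together in a further fit; siRNA replicate 1, at the low end, was left out alone only. Values without the pair are given for the 4 genes, and for other genes where they ended a call. Of 14248 genes tested with edgeR, 846 rose (5.94%) and 975 fell (6.84%) at day 9, and 1824 rose (12.8%) and 1553 fell (10.9%) at day 13, at an adjusted p under 0.05; a gene past that threshold is called. Of 5 Kupffer cell markers 3 fell at day 9 and 4 at day 13, and of 6 monocyte and macrophage markers 2 rose at day 9 and 2 fell at day 13. Of 5 stellate and of 5 endothelial markers 1 each rose at day 9 and 2 each fell at day 13, and of 6 hepatocyte markers 1 fell at day 9 and 1 rose and 2 fell at day 13. Of 4 tested erythroid markers none was called at day 9 and 2 fell at day 13, when their summed level ran from 1677 to 4025 CPM in controls and from 464 to 1480 CPM in siRNA livers, with a median log2 fold change of -1.23. The part of these changes in the results was not tested.

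**Figure D1:**
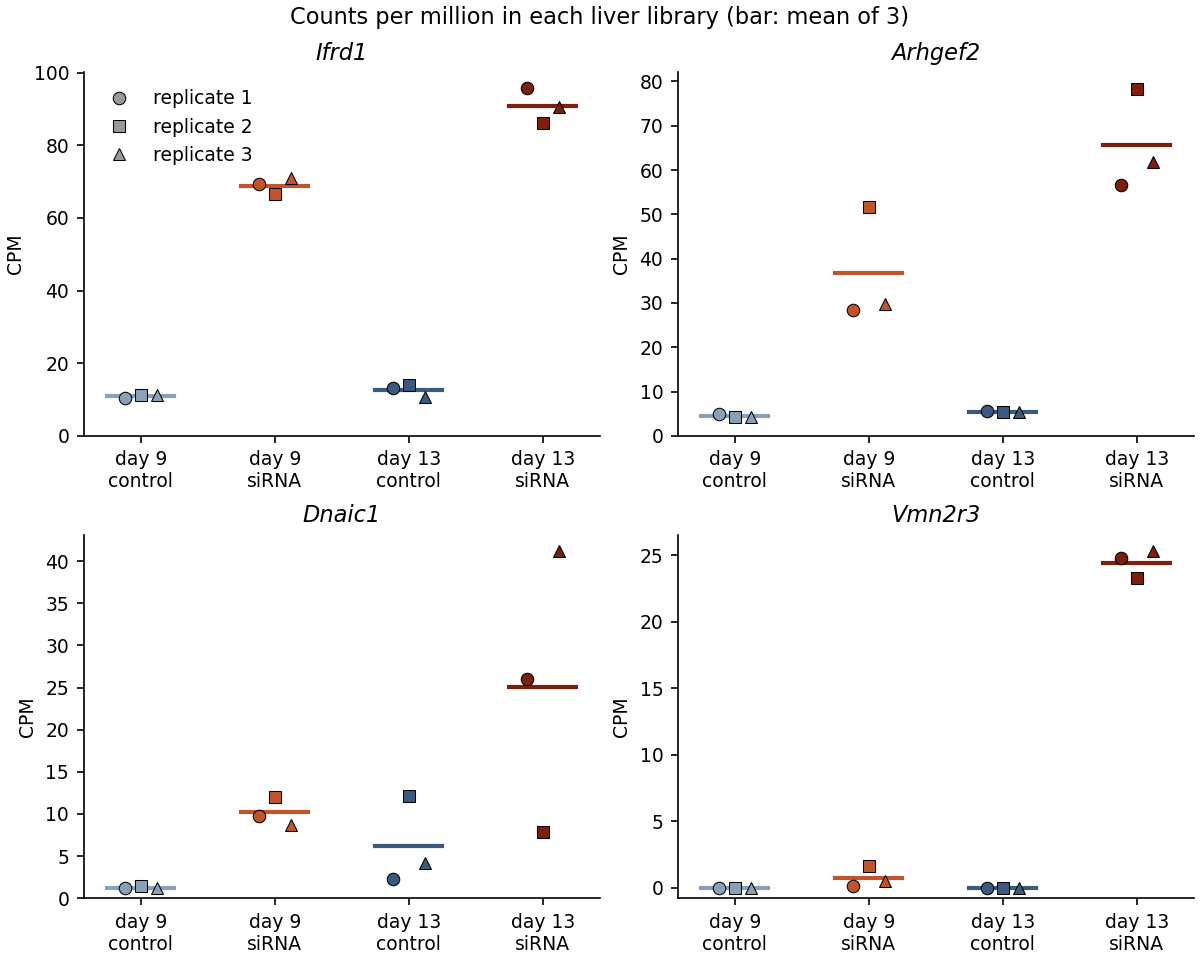
Each point is the level of a gene in 1 library (vertical axis, CPM, linear, with a scale of its own in each panel), in the 4 groups on the horizontal axis; symbols mark replicates and bars the mean of 3 libraries. Ifrd1 and Arhgef2 lie above the controls in every siRNA library, Dnaic1 overlaps at day 13, and Vmn2r3 is at 0 in all 6 controls.

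All siRNA libraries lay above all controls for the 4 genes at day 9 and for 3 of the 4, not Dnaic1, at day 13. Among all genes tested such separation upward occurred in 22.5% at day 9 and in 17.2% at day 13. The genes were chosen on this contrast, and nothing is read from these counts. A log2 fold change of at least 1 occurred in 2.70% of tested genes at day 9 and 6.57% at day 13, and one of at least 2 in 0.519% and 1.73%.

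Ifrd1 (ENSMUSG00000001627, chr12:40201567-40248504, minus strand, 13 merged exons, build GRCm38) stood at 10.36, 11.13 and 11.29 CPM in the day 9 controls and at 69.2, 66.5 and 70.9 CPM in the day 9 siRNA livers. At day 13 it stood at 13.19, 14.11 and 10.61 CPM in controls and at 95.8, 86.2 and 90.5 CPM in siRNA livers. The groups were far apart on both days, and replicates lay close together, with SDs of log2 CPM from 0.0458 to 0.213. The fold of the means was 6.30 at day 9 and 7.19 at day 13. On the log2 scale the fitted fold changes were 2.65 (SE 0.11) and 2.85 (SE 0.12), and the latter was 2.75 without the pair of libraries high on the third component. Controls of the 2 days overlapped, and the day 13 siRNA libraries all exceeded the day 9 siRNA libraries in CPM. Day and set of libraries cannot be told apart in this.

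In the order of day 9 log2 fold changes Ifrd1 ranked 41 of 14248, between the histone gene Hist1h2br (2.67) and Gpr141 (2.64), and at day 13 it ranked 129. Its nearest profile over the 12 libraries, measured as the root mean square difference of log2 CPM relative to controls of the day, was that of Trp53inp1, which encodes a p53-induced nuclear protein (0.38), followed by the transcription factor gene Atf5 (0.38), Nrg1 (0.41), Hist1h2be (0.46) and Arhgef2 (0.47). The median distance to all genes was 1.97. Trp53inp1 averaged 37.4 ± 5.83 and 182 ± 45.0 CPM in control and siRNA livers at day 9 and 30.8 ± 4.45 and 206 ± 56.9 CPM at day 13 (SD, n = 3). These genes were picked by likeness in the same samples, so their values are a description.

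A non-coding gene on the opposite strand, Gm7008, overlaps 321 exonic bases of Ifrd1, and the strand setting of the counting is not given in the sources used here. Gm7008 had 6, 16 and 9 counts in day 9 controls and 24, 43 and 28 in siRNA livers, and 0 to 4 counts in any day 13 library. It held 0 to 2.81 counts per 100 counts of Ifrd1. Its log2 fold changes, 1.298 (SE 0.41, edgeR adjusted p = 0.0532) and 2.85 (SE 1.05, adjusted p = 0.0654), did not pass the test. Of the 75-base windows in Ifrd1 transcripts 4.07% also occur in another gene, and all of those were shared with Gm7008.

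Of the other tested genes within 250 kb of Ifrd1, the closest was Zfp277, a zinc finger gene 66542 bases away. It was unchanged past the threshold at day 9, with a log2 fold change of 0.06 (SE 0.11), and rose by 0.54 (SE 0.13, edgeR adjusted p = 0.00704) at day 13. Arl4a, a small GTPase gene 163542 bases away on the other side, rose by 0.58 at day 13 (adjusted p = 0.0222), and Dock4, an exchange factor gene for Rac and Rap, fell by 1.00 (adjusted p = 0.0265). The last 2 calls were lost in 3 of 6 fits each that left out 1 day 13 library, and that of Arl4a also without the pair high on the third component (adjusted p = 0.0692). None of the 4 tested neighbours, Gm7008 included, was called at day 9, when 12.8% of all tested genes were called. Of the 4, 2 rose and 1 fell at day 13, when 12.8% of all tested genes rose and 10.9% fell. The neighbours' log2 fold changes were well below that of Ifrd1 except for Gm7008 at day 13.

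The paralog Ifrd2, whose product also belongs to the interferon-related regulator family and binds ribosomes, stood at 23.9 ± 0.959 and 28.0 ± 0.812 CPM in day 9 control and siRNA livers and at 33.6 ± 4.15 and 49.3 ± 6.07 CPM at day 13 (SD, n = 3). Its log2 fold change was 0.23 at day 9 (SE 0.11, edgeR adjusted p = 0.216), which did not pass, and 0.55 at day 13 (SE 0.12, adjusted p = 0.00461). A list of Ifrd2 and early genes induced by growth factors and phorbol ester held 9 genes besides Ifrd1, of which 8 were tested. At day 9 Jun (0.93), Btg2 (0.75) and Nr4a1 (1.28) rose while Zfp36 fell by 0.79 and Egr1 by 2.30. At day 13 Ifrd2, Jun (1.28), Btg2 (0.52) and Egr1 (3.90) rose and none fell. Of the 8 genes, 3 rose and 2 fell at day 9 and 4 rose at day 13. The shares of all tested genes that rose were 5.94% and 12.8%, and those that fell 6.84% and 10.9%, at days 9 and 13. The list's median log2 fold change was 0.06 at day 9 and 0.54 at day 13, beside 0.01 and 0.00 over all genes. Leaving out single libraries ended the day 9 calls of Nr4a1 and Egr1 in 5 of 6 fits and the day 13 call of Btg2 in 4 of 6; the other calls of this list held in each such fit. Without the pair high on the third component the day 13 calls of Egr1 (adjusted p = 0.0847) and Btg2 (0.245) and the day 9 call of Egr1 (0.0679) were lost.

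Among 14 corepressor genes of the Sin3 and NCoR complexes, the partners of the Ifrd1 protein, the results for Hdac3 and Sap30 are given. Hdac3, the deacetylase of the NCoR complex, fell by 0.49 at day 9 (edgeR adjusted p = 0.0180) and rose by 0.54 at day 13 (adjusted p = 0.00969). Sap30, a subunit of the Sin3 complex, rose by 0.64 at day 9. Of the 14 genes 1 rose and 1 fell at day 9, near the share of all genes. Of all tested genes 12.8% were called at day 9 and 23.7% at day 13. The list's medians were -0.04 and 0.08, beside 0.01 and 0.00 over all genes, and nothing is read for the list as a whole. The day 9 calls of Hdac3 and Sap30 were lost in 4 and 6 of 6 fits that left out 1 library, and the day 13 call of Hdac3 held in each.

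The transcript of Ifrd1 with the longest coding sequence in GENCODE had 1 ATG upstream of its start codon in a 5′ leader of 233 bases. An upstream ATG was present in 53.4% of 20444 coding genes, and the median leader had 164 bases. Dnaic1 also had 1 upstream ATG, Vmn2r3 had 16 in a leader of 673 bases, and Arhgef2 had none. GENCODE marks 1 of 10 Ifrd1 transcripts and 4 of 9 Vmn2r3 transcripts as decay targets; such a transcript is annotated for 20.8% of coding genes. Besides Ifrd1, 15 transcripts described as targets of nonsense-mediated decay were tested, a list that includes stress-induced genes. Of them 8 rose and 1 fell at each day, where 5.94% and 12.8% of all tested genes rose and 6.84% and 10.9% fell at days 9 and 13, with medians of 1.27 at day 9 and 1.80 at day 13. Gas5, the host of small nucleolar RNAs, rose from 37.1 ± 6.31 to 113 ± 13.0 CPM at day 9 and from 39.7 ± 12.1 to 305 ± 41.3 CPM at day 13 (SD, n = 3; adjusted p = 0.000420 and 2.69e-06). Ddit3, which encodes the stress factor CHOP, rose by 2.60 and 4.20 on the log2 scale, Gadd45a by 1.27 and 3.49, and Zfas1, another snoRNA host, by 1.77 and 3.35. The gene that fell was Cars at day 9 (by 0.57) and Gadd45b at day 13 (by 2.01). The call of Cars was lost in 5 of 6 fits that left out a library, while the other calls named from this list held in every such fit.

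Arhgef2 (ENSMUSG00000028059, chr3:88605966-88648052, plus strand) stood at 4.83, 4.18 and 4.30 CPM in day 9 controls and at 28.5, 51.7 and 29.8 CPM in day 9 siRNA livers. At day 13 the controls held 5.65, 5.41 and 5.31 CPM and the siRNA livers 56.6, 78.4 and 61.9 CPM. Controls of both days lay within a narrow range, and siRNA replicate 2 was the highest library on each day, although replicate numbers do not pair libraries across days. The fold of the means was 8.27 at day 9 and 12.02 at day 13. Fitted log2 fold changes were 3.05 (SE 0.22) and 3.59 (SE 0.24). Without day 9 siRNA replicate 2 the first was 2.71, and without that pair of day 13 libraries the second was 3.40. The day 13 siRNA libraries all exceeded the day 9 siRNA libraries, where day and set of libraries cannot be told apart.

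By the same measure the smallest distance to Arhgef2, 0.19, was that of Trp53cor1, a p53-induced long non-coding RNA at the Cdkn1a locus. With 0 counts in all day 13 controls and 7 to 9 in day 13 siRNA livers, its distance rests on the prior count of 2 and does not show a like fold. It stood at 0.0548 ± 0.0199 CPM in day 9 controls, 0 in all day 13 controls and 0.860 CPM in the siRNA groups of both days (SD 0.340 at day 9 and 0.109 at day 13, n = 3). Nrg1, which encodes a growth factor of the ErbB family (0.44), the non-coding gene Gm19619 (0.45), Ifrd1 (0.47) and Ddit3 (0.50) came next, and the median gene was at 2.35. Nrg1 had 2 counts in each day 13 control, so its distances to Arhgef2 and Ifrd1 depend in part on the prior count. In the order of log2 fold changes Arhgef2 ranked 26 at day 9, directly above Dnaic1, and 84 at day 13, between Spa17 (3.60) and Nrg1 (3.59).

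Gm20652, a gene on the opposite strand, overlaps 138 exonic bases of Arhgef2 and had 0 counts in all 12 libraries. Of the 75-base windows of Arhgef2 transcripts 1.18% occur in another gene. Among 16 tested genes within 250 kb, none rose and Sema4a fell by 0.65 at day 9 (edgeR adjusted p = 0.00205). At day 13 Lmna, the gene of nuclear lamins A and C, rose by 0.49 (adjusted p = 0.00495), Ssr2 by 0.42 and Gm10704 by 0.56, while Slc25a44 fell by 0.46 and Sema4a by 0.43. Among all tested genes 5.94% and 12.8% rose and 6.84% and 10.9% fell at days 9 and 13, so few calls would be found among 16 genes. The medians of the neighbours were -0.01 and 0.04. The day 13 calls other than Lmna were each lost in 2 to 4 of 6 fits that left out a library, and that of Slc25a44 also without the pair high on the third component (adjusted p = 0.0756). Khdc4, the nearest tested gene on the far side, was at 0.26 (adjusted p = 0.360) and 0.17 (adjusted p = 0.553).

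Of 54 other exchange factor genes of the Dbl family, to which GEF-H1 belongs, 50 were tested. At day 9 Vav1, Arhgef10, Abr and Fgd6 rose and Ngef, Plekhg5 and Plekhg6 fell; at day 13 none rose and Ngef, Kalrn, Arhgef7 and Akap13 fell. Rising calls thus made up 4 of 50 at day 9, where 5.94% of all genes rose, and 0 of 50 at day 13, where 12.8% did. At day 13, 10 of the 50 had an unadjusted p under 0.05, and DESeq2 and limma-voom called 4 and 3 in either direction. The list's medians were 0.00 and -0.17. The steadiest calls were Ngef, an ephexin of neurons, at day 9 (fell by 0.65, adjusted p = 0.00633) and Kalrn, a dual exchange factor for Rac and RhoA, at day 13 (fell by 0.75, adjusted p = 0.000289), which held in every fit that left out a library. The other calls were lost in 1 to 5 of 6 such fits.

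Genes of the RhoA pathway and partners of GEF-H1 numbered 25, of which 24 were tested. At day 9 Mark3 rose by 0.54 (edgeR adjusted p = 0.00438), Rhob by 0.54 and Limk1 by 0.72, and Mylk and Cgn fell by 0.53 and 0.64. At day 13 Mark3, a kinase that phosphorylates GEF-H1, rose by 0.72 (adjusted p = 0.000343), Ywhaz, a 14-3-3 protein gene, by 0.63, Limk2, a kinase downstream of RhoA, by 1.12 and its substrate Cfl1 by 0.58. Nod1 (by 0.99), Mylk (by 0.60) and Myl12b (by 0.50) fell at day 13. Of the 24, 3 rose and 2 fell at day 9, and 4 rose and 3 fell at day 13. Among all tested genes 5.94% and 12.8% rose and 6.84% and 10.9% fell at days 9 and 13. The list's medians were 0.15 and 0.09. Mark3 was the list's single gene that rose on both days. Single libraries decided Rhob, Limk1, Mylk and Cgn at day 9 and Myl12b at day 13, whose calls were lost in 2, 6, 3, 6 and 3 of 6 fits.

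**Figure D2:**
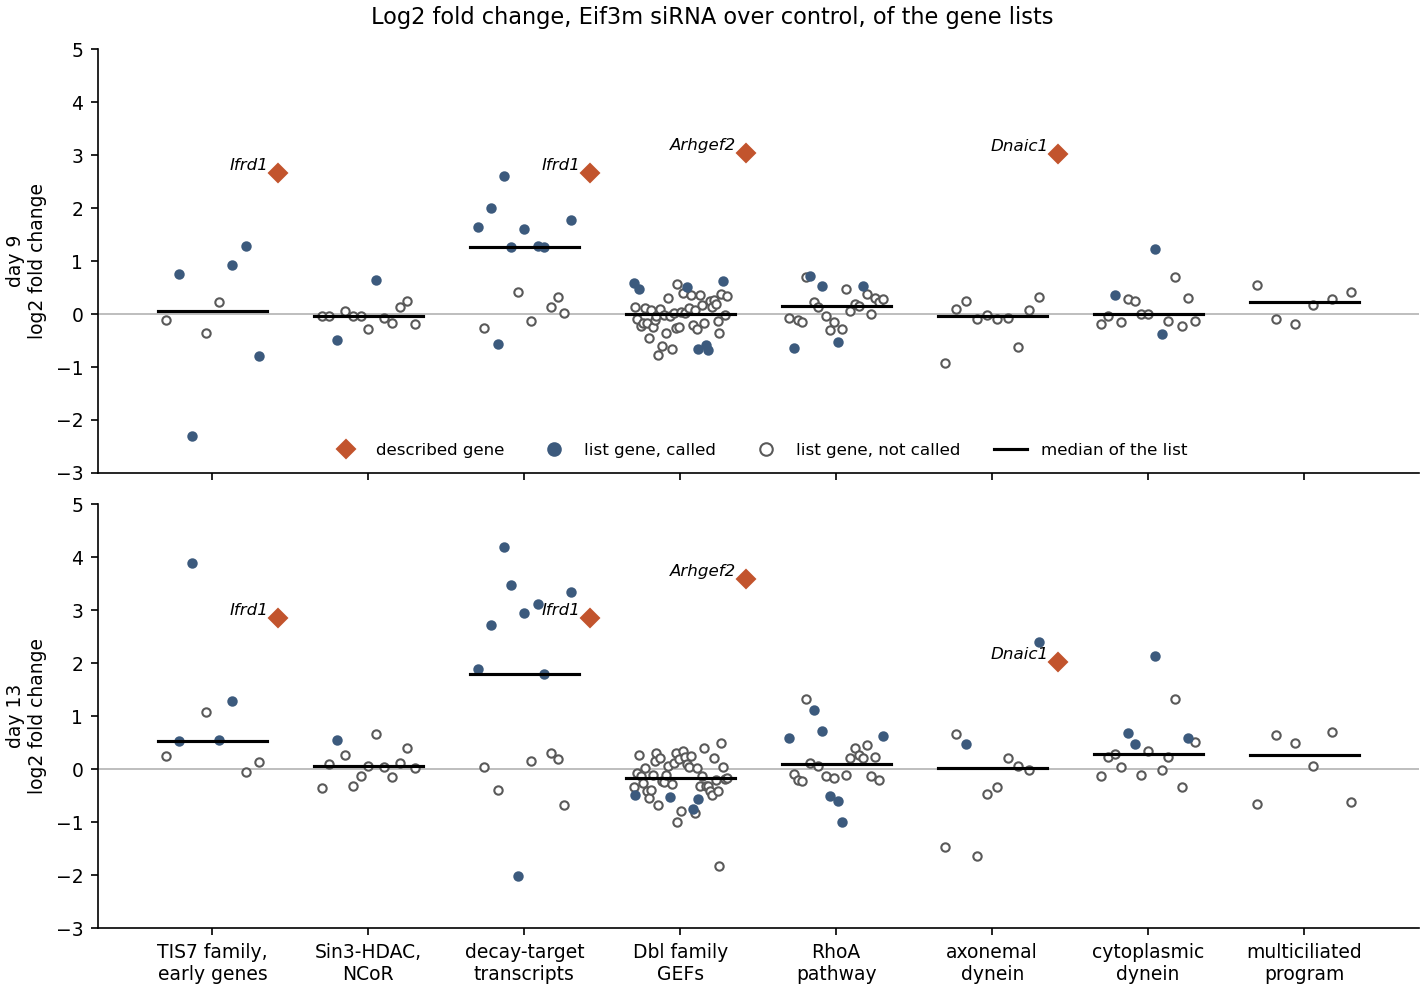
Log2 fold change of siRNA over control (vertical axis) of tested genes of 8 lists (horizontal axis), day 9 above and day 13 below; filled points passed the test, open points did not, bars are list medians without the diamond, and the diamonds are Ifrd1, Arhgef2 and Dnaic1. The diamonds were chosen for their rise, so the place of Arhgef2 above all 50 other Dbl family exchange factors on both days is a description. The list of decay targets has the highest median, 1.27 and 1.80.

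Dnaic1 (ENSMUSG00000061322, chr4:41569775-41638158, plus strand, 21 merged exons) stood at 1.21, 1.39 and 1.16 CPM in day 9 controls and at 9.81, 11.998 and 8.71 CPM in day 9 siRNA livers. At day 13 it stood at 2.29, 12.1 and 4.22 CPM in controls and at 26.0, 7.88 and 41.2 CPM in siRNA livers. The day 9 groups were well apart, whereas at day 13 control replicate 2 exceeded siRNA replicate 2. Eif3m, at 38.0 CPM in that control and 2.41 CPM in that siRNA library, matched the labels of both. The SD of log2 CPM rose from 0.129 and 0.232 among control and siRNA livers of day 9 to 1.20 and 1.23 at day 13.

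The fold of the means for Dnaic1 was 8.13 at day 9 and 4.03 at day 13, and the fitted log2 fold changes were 3.02 (SE 0.62) and 2.03 (SE 0.63). At day 13 the value was 2.91 without control replicate 2, 1.43 without siRNA replicate 3 and 2.23 without the pair high on the third component. Thinning the day 9 counts to the depth of day 13 gave 3.39 at day 9. Dnaic1 ranked 27 at day 9 and 239 at day 13 in the order of log2 fold changes. The nearest profile was that of Fabp12, a fatty acid-binding protein gene (0.66), then Gm15611 (0.72), the mitochondrial pyrimidine carrier gene Slc25a33 (0.79), Lyz1 (0.79) and Gm45792 (0.80), against a median of 1.95. Lyz1 had 0 to 1 counts in any day 13 library, so its distance too rests on the prior count. Day 13 controls held 2, 4 and 1 counts of Fabp12, 0, 4 and 1 of Gm15611, and 0, 2 and 0 of Gm45792. The distances of these 3 genes depend in part on the prior count as well. Slc25a33 averaged 11.6 ± 1.67 and 38.9 ± 2.09 CPM at day 9 and 13.3 ± 5.29 and 42.2 ± 9.26 CPM at day 13 in control and siRNA livers (SD, n = 3).

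The 3′ end of Dnaic1 overlaps that of Enho by 15 exonic bases on the opposite strand. Enho encodes adropin, a secreted peptide made by liver and tied to energy balance. Enho stood at 22.6, 21.3 and 23.1 CPM in day 9 controls and at 43.7, 44.9 and 46.9 CPM in siRNA livers. At day 13 it stood at 40.4, 66.3 and 29.6 CPM in controls and at 63.2, 24.3 and 61.1 CPM in siRNA livers. Every day 9 siRNA library was thus above the controls, and at day 13 the groups overlapped, with control replicate 2 high and siRNA replicate 2 low as for Dnaic1.

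The log2 fold change of Enho was 1.02 at day 9 (SE 0.33, edgeR adjusted p = 0.0679) and 0.12 at day 13 (SE 0.34, adjusted p = 0.834). It did not pass at either day, but at day 9 DESeq2 (adjusted p = 0.0146), limma-voom (0.0285) and the fit of day 9 alone (0.000147) called it. Over its alternatives the adjusted p at day 9 ran from 0.000147 to 0.212. For each 100 counts of Enho there were 5.35, 6.51 and 5.02 counts of Dnaic1 in day 9 controls and 22.4, 26.7 and 18.6 in siRNA livers. At day 13 the ratios were 5.67, 18.3 and 14.3 in controls and 41.2, 32.4 and 67.4 in siRNA livers. The ratio did not overlap between groups on either day, although Dnaic1 itself did at day 13. Dnaic1 was chosen for its rise and the ratio was computed after the values had been seen, so nothing is read from that separation. Reads in the shared bases cannot be assigned without strand, and no 75-base window of Dnaic1 occurred in the transcripts of another gene.

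**Figure D3:**
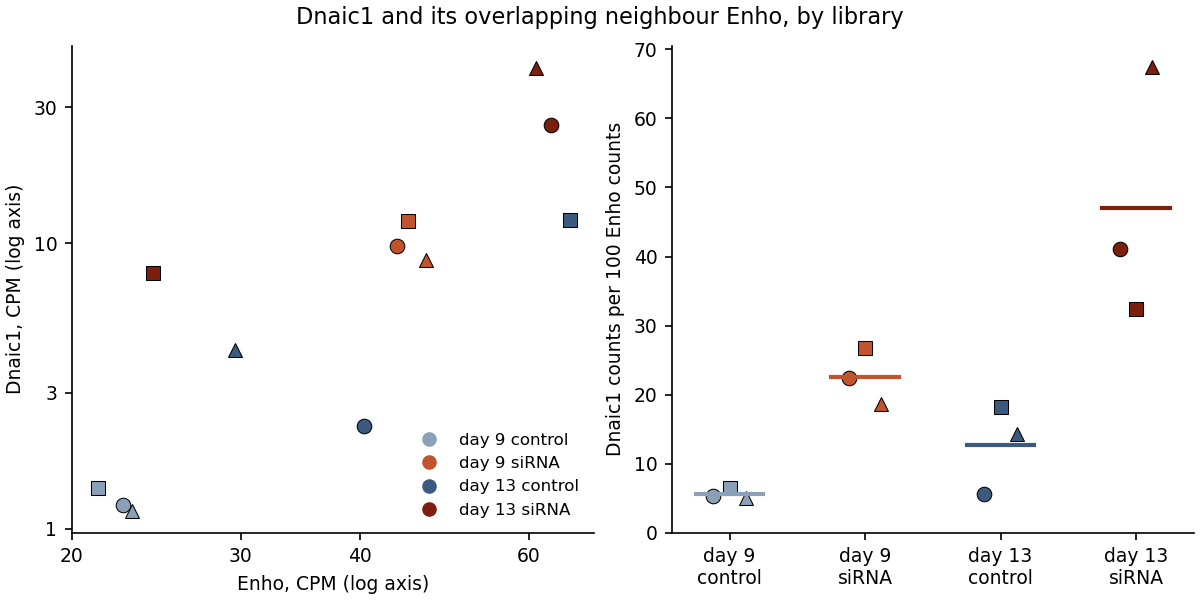
Left, Dnaic1 (vertical, CPM, log axis) against Enho (horizontal, CPM, log axis) in each of the 12 libraries; right, counts of Dnaic1 per 100 counts of Enho in each library with group means as bars. Symbols mark replicates 1 (circle), 2 (square) and 3 (triangle). The siRNA ratios of 18.6 to 26.7 at day 9 and 32.4 to 67.4 at day 13 lie above those of the controls of the same day. Dnaic1 was chosen for its rise and the ratio after the values had been seen, so this is a description.

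On the other side of Dnaic1, 237 bases away and read in the opposite direction, lies Fam219a. It was at -0.19 (SE 0.16, edgeR adjusted p = 0.481) at day 9 and fell by 0.96 (SE 0.22, adjusted p = 0.00623) at day 13, which held in each fit that left out a library. Of 13 tested genes within 250 kb none rose on either day. As 5.94% and 12.8% of all tested genes rose at days 9 and 13, few rises would be found among 13 genes. Neighbours that fell included Ubap1, Nudt2, AI464131 and Il11ra1 at day 9 and Nudt2, AI464131 and Fam219a at day 13. The share of all tested genes that fell was 6.84% at day 9 and 10.9% at day 13. The medians of all 13 tested neighbours, -0.34 and -0.30, lay below the 0.01 and 0.00 of all genes. AI464131 fell by 0.91 at day 13 (adjusted p = 0.000212), which held without any 1 library of the day. The calls of Ubap1, AI464131 and Il11ra1 at day 9 were lost in 6 of 6 such fits, and those of Nudt2 in 5 at day 9 and 4 at day 13, where it was also lost without the pair high on the third component (adjusted p = 0.0830).

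**Figure D4:**
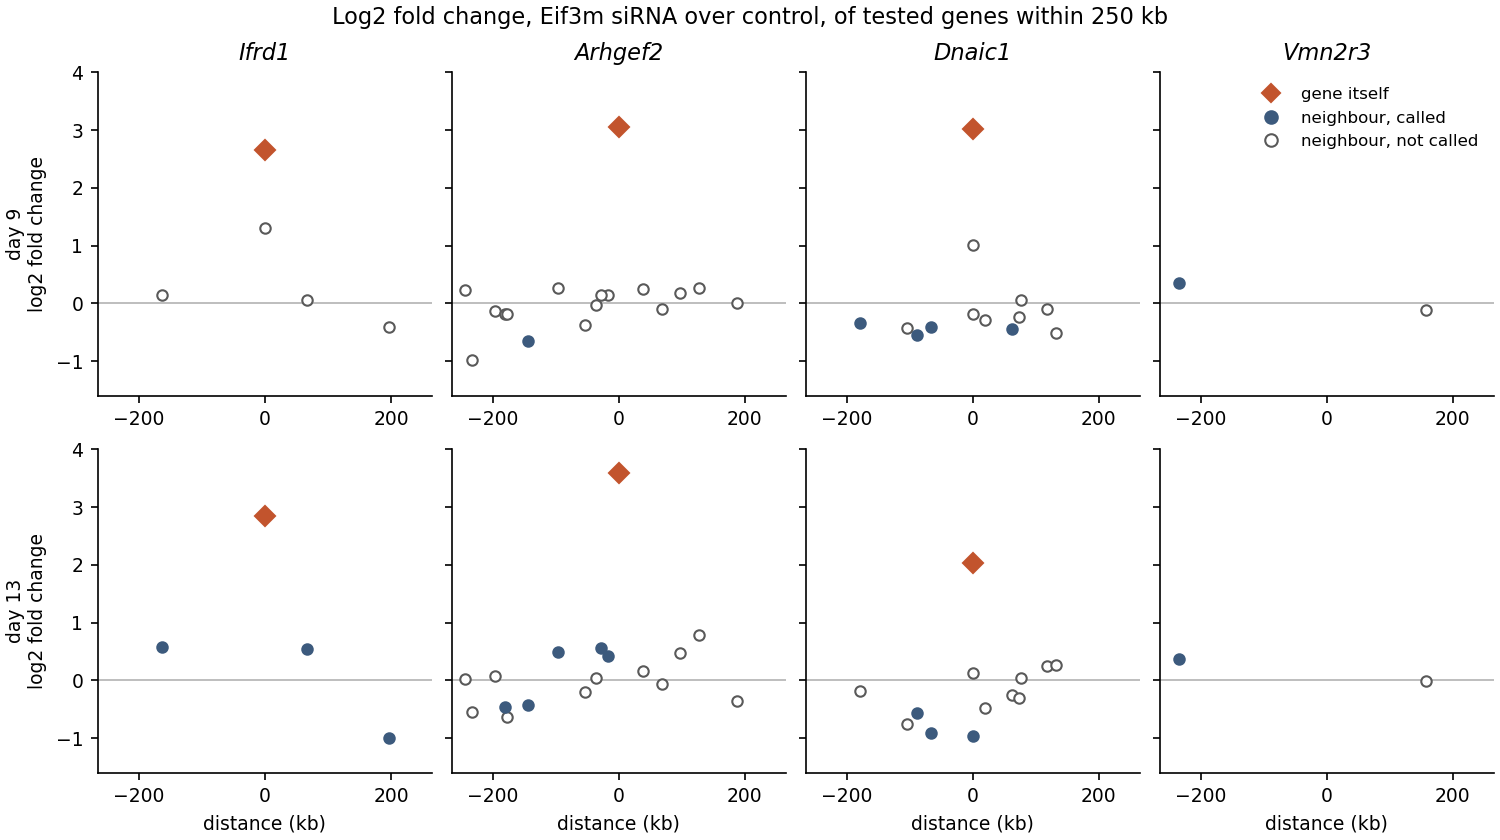
Log2 fold change of siRNA over control (vertical axis, day 9 above, day 13 below) against the distance of a gene's body from the named gene (horizontal axis, kb, lower coordinates to the left) for the tested genes within 250 kb that are reported; filled points passed the test and diamonds are the named genes. The diamond of Vmn2r3 is not drawn because its controls were at 0. Apart from Gm7008 and Enho, which overlap Ifrd1 and Dnaic1, no tested neighbour rose by 1 or more on the log2 scale. Such a rise occurred in 2.70% of all tested genes at day 9 and 6.57% at day 13.

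Most other dynein genes of cilia had few counts. Of 35 further genes for axonemal dynein arms and their assembly 10 were tested, and no untested one exceeded 17 counts in a library. Dnaic2, the second intermediate chain of the outer arm, had 0 to 2 counts, the heavy chain gene Dnah5 0 to 5 and Dnah9 0 in all libraries. None of the 10 was called at day 9, where 1 had an unadjusted p under 0.05 and DESeq2 and limma-voom called 0. At day 13 Dnaaf5, an assembly factor, rose by 0.47 (edgeR adjusted p = 0.0221) and Wdr78 by 2.40 (adjusted p = 0.0285), and these calls were lost in 4 and 5 of 6 fits that left out a library and without the pair high on the third component (adjusted p = 0.137 and 0.196). Of the 10, 5 had an unadjusted p under 0.05 at day 13, as did 5123 of all 14248 tested genes, and DESeq2 and limma-voom called 2 and 1. The summed level of the 35 genes ran from 21.8 to 23.1 CPM in day 9 controls and 22.5 to 23.4 in day 9 siRNA livers. It ran from 18.2 to 24.1 CPM in day 13 controls and 25.5 to 27.6 in day 13 siRNA livers. The list's medians were -0.04 and 0.02. Among all tested genes 12.8% were called at day 9 and 23.7% at day 13.

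No tested gene of the multiciliated cell program moved past the threshold. Foxj1, the master regulator of motile cilia, had 0 to 11 counts in any library, and of the 25 genes 6 were tested. None of the 6 was called on either day, while 12.8% and 23.7% of all tested genes were called at days 9 and 13. With 6 genes that is near the share of all genes. Of the 6, 1 had an unadjusted p under 0.05 at day 9 and 0 at day 13, and DESeq2 and limma-voom called 0. Rfx3 averaged 2.28 ± 0.208 and 2.78 ± 0.630 CPM at day 9 and 1.83 ± 0.883 and 2.92 ± 2.15 CPM at day 13 in control and siRNA livers (SD, n = 3). The summed level of the 5 defining markers of multiciliated cells ran from 0.254 to 0.338 CPM in day 9 controls, 0.197 to 0.454 in day 9 siRNA livers, 0.142 to 0.404 in day 13 controls and 0.219 to 0.371 in day 13 siRNA livers. Of 6 tested cholangiocyte markers 0 were called at day 9 and 1, Sox9, rose at day 13.

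Cytoplasmic dynein, the motor of transport along microtubules, was well expressed, and 15 of 17 listed genes were tested. Dynll1, a light chain shared by several complexes, rose from 9.60 ± 1.84 to 22.3 ± 1.87 CPM at day 9 and from 22.6 ± 2.00 to 99.3 ± 18.2 CPM at day 13 (SD, n = 3; edgeR adjusted p = 0.000403 and 2.69e-06). Dync1h1 rose by 0.36 at day 9 and Dynll2 fell by 0.38. At day 13 Dync1li1 (0.69), Dync1li2 (0.47) and Wdr34 (0.60) rose as well and none fell. Of the 15, 2 rose and 1 fell at day 9 and 4 rose at day 13. Among all tested genes 5.94% and 12.8% rose and 6.84% and 10.9% fell at days 9 and 13. The list's medians were -0.01 and 0.29. The calls of Dync1h1 and Dynll2 were lost in 5 of 6 fits that left out a library and that of Wdr34 in 4. Without the pair high on the third component the calls of Dync1li2 (adjusted p = 0.0800) and Wdr34 (0.174) were lost.

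Vmn2r3 (ENSMUSG00000091572, chr3:64257215-64289709, minus strand) had 0 counts in all 6 control libraries. It had 8, 96 and 23 counts in the day 9 siRNA livers, equal to 0.143, 1.60 and 0.475 CPM, and 177, 251 and 231 counts in the day 13 siRNA livers, equal to 24.8, 23.3 and 25.3 CPM. The day 9 siRNA libraries thus differed among themselves by an order of magnitude, while the day 13 siRNA libraries were nearly equal. A count of 0 allows up to 3 counts, or 0.0586 to 0.0771 CPM in the day 9 controls and 0.325 to 0.427 CPM in the day 13 controls. Against this floor in each control library, the mean of the siRNA livers was at least 10.7-fold higher at day 9 and at least 63.4-fold higher at day 13. These limits cover counting error alone.

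The day 9 limit for Vmn2r3 rested on siRNA replicate 2: without it the rise was at least 4.46-fold, and with day 9 counts thinned to the depth of day 13 at least 2.73-fold. At day 13 the limit was at least 60.2-fold without the pair of libraries high on the third component. Of 50686 genes, 27490 had 0 counts in all 6 controls, and 4 of those had a count in every siRNA library. The other 3 were Olfr20 (1 to 11 counts), Krt25 (1 to 5) and the pseudogene Gm17994 (1 to 2). No gene showed the reverse, with counts in every control and 0 in every siRNA library. The nearest profiles were Rpsa-ps2 (1.66), Trib3 (1.88), Sstr2 (1.99), Cdkn1a (2.09) and Gm19619 (2.14), against a median of 4.55; as Vmn2r3 was at 0 in all controls, these distances rest on the prior count. The pseudokinase gene Trib3 averaged 10.41 ± 1.72 and 33.7 ± 13.2 CPM in control and siRNA livers at day 9 and 2.12 ± 0.523 and 74.7 ± 15.6 CPM at day 13 (SD, n = 3).

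Vmn2r3 lies in a cluster of receptor genes on chromosome 3. Vmn2r1, Vmn2r2, Vmn2r4, Vmn2r5 and Vmn2r6 had 0 counts in all 12 libraries. Vmn2r7 (chr3:64685044-64844765) had 0 counts in all controls, 0, 2 and 0 counts in day 9 siRNA livers and 7, 20 and 6 counts in day 13 siRNA livers. Vmn2r7 was called as risen at day 13 (edgeR adjusted p = 0.00932) and did not pass at day 9 (adjusted p = 0.466). It passed the filter on low counts only through the day 13 siRNA libraries, where it was high. Its call is therefore a description, and nothing is read from it. The day 13 call held in the 6 fits that left out 1 library and not without the pair high on the third component (adjusted p = 0.0644). For each 100 counts of Vmn2r3 there were 3.95, 7.97 and 2.60 counts of Vmn2r7 at day 13.

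Of the 75-base windows in Vmn2r3 transcripts 235 of 17981 occur in another gene (1.31%), and 94 of them in Vmn2r7. Reads from such windows cannot be assigned to 1 gene by sequence, and values of both genes are uncertain to that extent. Of the 121 other Vmn2r genes in the table, 112 had 0 counts in all 12 libraries, and 1, Vmn2r7, was tested. Of 175 vomeronasal type 1 receptor genes 168 were at 0 in all libraries. The 1 tested, Vmn1r53, had a log2 fold change of 1.15 at day 9 (SE 0.41, edgeR adjusted p = 0.0841) and 0.40 at day 13 (adjusted p = 0.680). DESeq2 and limma-voom called it at day 9.

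Genes that define vomeronasal neurons were at or near 0. Trpc2, the channel of vomeronasal signal transduction, had 0 to 4 counts in any library and 0 in 5 of 6 siRNA libraries, and Omp, a marker of mature olfactory neurons, had 1 to 12. The summed level of 4 markers of olfactory and vomeronasal neurons ran from 0.437 to 0.605 CPM in day 9 controls, 0.484 to 0.717 in day 9 siRNA livers, 0.269 to 0.712 in day 13 controls and 0.556 to 0.979 in day 13 siRNA livers. Of 15 listed vomeronasal neuron genes 3 were tested and none was called; 0 had an unadjusted p under 0.05 at day 9, and 1 did at day 13, where DESeq2 and limma-voom called 1. Tested genes of that list included B2m and Gnai2, which liver also expresses. Among all tested genes 12.8% were called at day 9 and 23.7% at day 13, so no call among 3 genes is near that share. Near Vmn2r3, Gmps, a gene of GMP synthesis 234636 bases away, rose by 0.35 at day 9 (edgeR adjusted p = 0.0267) and 0.37 at day 13 (adjusted p = 0.0142), calls that were lost in 5 and 2 of 6 fits that left out a library. Gm20656, on the other side, was at -0.11 and -0.02.

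Levels of different genes were set side by side per kilobase of merged exons. In day 13 siRNA livers Ifrd1 was highest at 15.5 ± 0.819 CPM per kb, then Dnaic1 at 8.99 ± 5.99, Arhgef2 at 6.67 ± 1.15 and Vmn2r3 at 1.40 ± 0.0601 (SD, n = 3). Dnaic1 and Arhgef2 did not differ beyond their spread there. In day 9 siRNA livers the order was Ifrd1 at 11.8 ± 0.372, Arhgef2 at 3.73 ± 1.32, Dnaic1 at 3.66 ± 0.601 and Vmn2r3 at 0.0425 ± 0.0438 CPM per kb, again with Arhgef2 and Dnaic1 within their spread. Arhgef2 and Dnaic1 were also level in day 9 controls, at 0.451 ± 0.0355 and 0.450 ± 0.0431 CPM per kb, and Ifrd1 stood at 1.87 ± 0.0850. In day 13 controls Dnaic1 at 2.23 ± 1.87 and Ifrd1 at 2.16 ± 0.309 CPM per kb did not differ beyond their spread, and Arhgef2 stood at 0.554 ± 0.0179. The merged exons of Vmn2r3 span 17411 bases in GENCODE, and the annotation the authors counted on may differ. Those of Arhgef2 span 9844 bases over 32 transcripts, 9 of them with a retained intron, and those of Dnaic1 span 2782 bases. The order of the genes and the likeness of Arhgef2 and Dnaic1 depend on these lengths.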

How the data were processed

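Messenger RNA was captured from ground livers, per the labels' protocols. The authors deposited expected counts per Ensembl gene that are whole numbers, which were treated here like rounded RSEM estimates and left unchanged; STAR 2.5.3a, RSEM 1.3.0 and mm10 are named in the submitters' processing notes. The sources used here do not give the annotation release, strand setting or filters. Symbols, found for 50462 of 50686 identifiers (the others held 0.0199% of counts), exons and overlaps came from GENCODE M21, and promoters from RefSeq.

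Genes passing filterByExpr (minimum count 10) were tested with edgeR 4.0.16 (quasi-likelihood, robust, TMM scaling) on all 12 libraries in a 4-group model, two-sided, with Benjamini-Hochberg adjustment over 14248 genes. CPM used TMM sizes; profile distances used log2 CPM with a prior count of 2, and fold changes the edgeR default of 0.125, where 2 had been planned. Fits left out each library of the day compared. Alternatives included DESeq2 1.42.0 and limma 3.58.1, and the steps were tested on simulated data. Replicate numbers did not pair libraries.

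The 4 genes and the lists were chosen with earlier results of these data known. Named were overlapping and nearest tested genes, called genes within 250 kb, the 5 most similar profiles, up to 4 called genes a list (2 most abundant where none was called) and neighbours in rank. Names that complete a count of 5 or fewer were added after their values were seen. Analyses used R 4.3.3 and Python 3.11.15. Some results are not reported here.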

Additional observations from a re-analysis of the deposited data

Results flagged for a closer look

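Hdac3 was below the controls in every day 9 siRNA library and above them in every day 13 siRNA library, with log2 fold changes of -0.49 and 0.54; the difference between the days was not tested. Egr1, an early gene of the same list as Ifrd1, did the same with log2 fold changes of -2.30 and 3.90, and that difference was not tested either. Both calls of Egr1 were lost without the pair of day 13 libraries high on the third component (edgeR adjusted p = 0.0679 and 0.0847). In CPM Egr1 stood at 18.1 to 65.3 in day 9 controls and 5.28 to 13.5 in day 9 siRNA livers, and at 2.38 to 4.99 in day 13 controls and 18.6 to 79.7 in day 13 siRNA livers. The 4 described genes were chosen for a rise on both days, so none of them could do the same.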

How the results depend on the processing

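Under both other scalings, both other filters, DESeq2, limma-voom, the replicate block, separate fits of each day and a prior count of 2, the log2 fold changes of Ifrd1, Arhgef2 and Dnaic1 moved by less than the spread between replicates, and none changed sign under any alternative. Larger moves came from thinning day 9 (Dnaic1 3.39, Vmn2r3 at least 2.73-fold) and from leaving out both day 13 libraries high on the third component, an alternative chosen after seeing the data (Arhgef2 3.40, Vmn2r3 at least 60.2-fold). Without 1 library the values ran from 2.63 to 2.68 and 2.71 to 2.94 for Ifrd1, 2.71 to 3.19 and 3.43 to 3.69 for Arhgef2, 2.88 to 3.12 and 1.43 to 2.91 for Dnaic1, and at least 4.46 to 15.0-fold and 58.8 to 67.1-fold for Vmn2r3, at days 9 and 13. Enho at day 13 turned to -0.13, -0.08 and -0.07 without control replicate 3, siRNA replicate 1 or siRNA replicate 3, and was at most 0.50 without control replicate 2. The number of genes called at day 9, 1821, was 2740 with limma-voom, 3412 with day 9 fitted alone, 3050 without the pair of day 13 libraries, 1159 with day 9 thinned and 884 to 1145 without 1 library. At day 13, 3377 became 2014 with the day fitted alone and 2299 to 3253 without 1 library. With replicate number as a block 1216 and 2681 genes were called; same-numbered libraries did not deviate together (correlations of -0.16 to 0.16), so the block is no pairing. Of 78 calls of named genes 38 held in each fit that left out 1 library of the day. Leaving out the pair high on the third component ended 11 of the 78. Low counts limit the precision for Vmn2r3 at day 9, Vmn2r7, Gm7008 and the untested cilium genes.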
